A study of Homo sapiens with 8 samples.

Results

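Genes with which cells fold, refold and clear their proteins were followed through gefitinib resistance in 2 lung cancer lines. The set held 36 genes, chosen by name from the 48405 rows of the deposited tables: 18 genes of the endoplasmic reticulum (ER), 6 genes made up of ATF4 and targets of it, and 12 heat shock proteins and partners of the cytosol and mitochondria. Each gene was read from the row that held its symbol, and HYOU1, the one gene with more than 1 row, from the row with the highest mean over all 8 libraries. All 36 were found, and 34 of them lay above 0 in every library. The other 2, the ER disulfide isomerases PDIA3 and PDIA6, were listed at 0 in whole groups.

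Proteins bound for membranes and for secretion fold in the ER. When unfolded proteins gather there, the sensors IRE1, PERK and ATF6 act through the transcription factors XBP1, ATF4 and the cleaved form of ATF6, and raise chaperones, degradation factors and, through ATF4, genes of amino acid supply and the growth arrest factor DDIT3 (CHOP). The heat shock response is a separate programme, in which the factor HSF1 raises chaperones of the cytosol, nucleus and mitochondria. EGFR, the receptor on which these cancer cells depend, is itself folded in the ER and is a known client of the HSP90 chaperone.

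HCC4006 and HCC827 are established human non-small cell lung cancer lines with activating EGFR mutations, and gefitinib inhibits the EGFR kinase. Polyadenylated RNA was sequenced from 4 groups: HCC4006 resistant to 3 µM gefitinib, HCC4006 carried in the solvent DMSO, HCC827 resistant to 3 µM gefitinib, and HCC827 carried in DMSO, with 2 libraries each, named here by their column letters A and B. Per the labels, resistant populations were grown with the drug still in the medium, so a lasting resistant state and an acute effect of the drug cannot be told apart. Resistant populations are not said to be clones, and whether A and B were grown as separate cultures is not stated. All p-values below therefore measure the spread between these libraries, which may be technical.

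Values are FPKM, a level per transcript length and library size, which allows comparison between genes. Library medians over rows above 0 were 53.6 to 59.0 FPKM, high for this unit, so a further scaling is possible. A trend with transcript length in resistant HCC827 limits comparison between genes there. Depth is unknown. Between 17406 and 19333 rows lay above 0 in a library, and in DMSO library A of HCC4006 the 10 most abundant rows took up 15.6% of the total, against 5.30% to 10.3% in the other 7 libraries. The epithelial markers EPCAM, KRT8 and KRT19 were above 0 in all 8 libraries. The row that names KRT18 lies on chromosome 4, away from the keratin gene, and was not used. EPCAM, KRT8 and KRT19 were lowest in resistant HCC4006, where EPCAM was at 183 and 113 FPKM and CDH1, the epithelial cadherin, at 3.03 and 3.29 FPKM. The alveolar surfactant gene SFTPB was at 0 in all 4 HCC4006 libraries. Of the fibroblast markers, COL1A1 lay between 13.4 and 120 FPKM, and COL1A2, DCN and LUM reached at most 1.82 FPKM. The immune markers PTPRC and CD3E were at 0 everywhere, and CD14 reached at most 2.32 FPKM. In bulk RNA, fewer cells of a kind and less RNA per cell cannot be told apart.

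The promoters of some of these genes carry DNA elements by which the programmes are known to act, and the stretches below show the elements in selected members. RefSeq windows on GRCh38.p14, from 250 bases before to 50 bases after each gene start, were available for 35 of the 36 genes, all but PDIA3. Searched on both strands, the ER stress element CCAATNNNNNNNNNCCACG stood in 7 of 17 ER genes (41.2%) and in 25 of 27305 genes with a window (0.0916%). Its second form, ATTGGNCCACG, stood in 3 of the 17 (17.6%) and in 0.0696% of all windows. The amino acid response element TGATGNAAN, the form bound by ATF4, was in 2 of the 6 ATF4 genes (33.3%), in the ER gene HERPUD1 and in 4.45% of all windows. The heat shock element GAANNTTCNNGAA was in 5 of the 12 heat shock genes (41.7%) and in 0.608% of all windows. Capitals mark the match, which reads as the reverse complement where the element lies on the other strand.
HSPA5, ER stress element, chr9:125241376-125241424, minus strand: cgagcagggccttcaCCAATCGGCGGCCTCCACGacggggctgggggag
CRELD2, ER stress element, chr22:49918539-49918587, plus strand: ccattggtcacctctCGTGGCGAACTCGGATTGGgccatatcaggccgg
XBP1, ER stress element, chr22:28800588-28800636, minus strand: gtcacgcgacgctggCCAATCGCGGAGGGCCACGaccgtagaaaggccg
HERPUD1, amino acid response element and then ER stress element II, chr16:56931950-56932050, plus strand: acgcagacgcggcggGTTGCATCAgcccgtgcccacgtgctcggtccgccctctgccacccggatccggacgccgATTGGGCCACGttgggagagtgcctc
ASNS, amino acid response element, chr7:97872453-97872491, minus strand: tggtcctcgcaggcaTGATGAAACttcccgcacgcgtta
CHAC1, amino acid response element, chr15:40953246-40953284, plus strand: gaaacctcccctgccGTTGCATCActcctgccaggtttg
HSP90AA1, heat shock element, chr14:102087105-102087147, minus strand: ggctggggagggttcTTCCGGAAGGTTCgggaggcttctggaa
HSP90AB1, heat shock element in 2 copies, chr6:44247763-44247858, plus strand: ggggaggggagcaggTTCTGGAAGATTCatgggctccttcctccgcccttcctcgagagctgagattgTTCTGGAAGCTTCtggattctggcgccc
A match is a description of the letters and not evidence of binding, and a window without one says nothing about the factor.

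The clearest contrast in this gene set lay within a group, between the 2 DMSO libraries of HCC4006. ER genes and ATF4 genes were several-fold higher in DMSO library A than in DMSO library B, while most heat shock genes were lower in A. In resistant HCC4006 the 2 libraries lay close together for most genes, with CHAC1 and SESN2 as exceptions, and their ER and ATF4 medians were near those of DMSO library B. The plot of levels by library gives every gene.

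**Figure D1:**
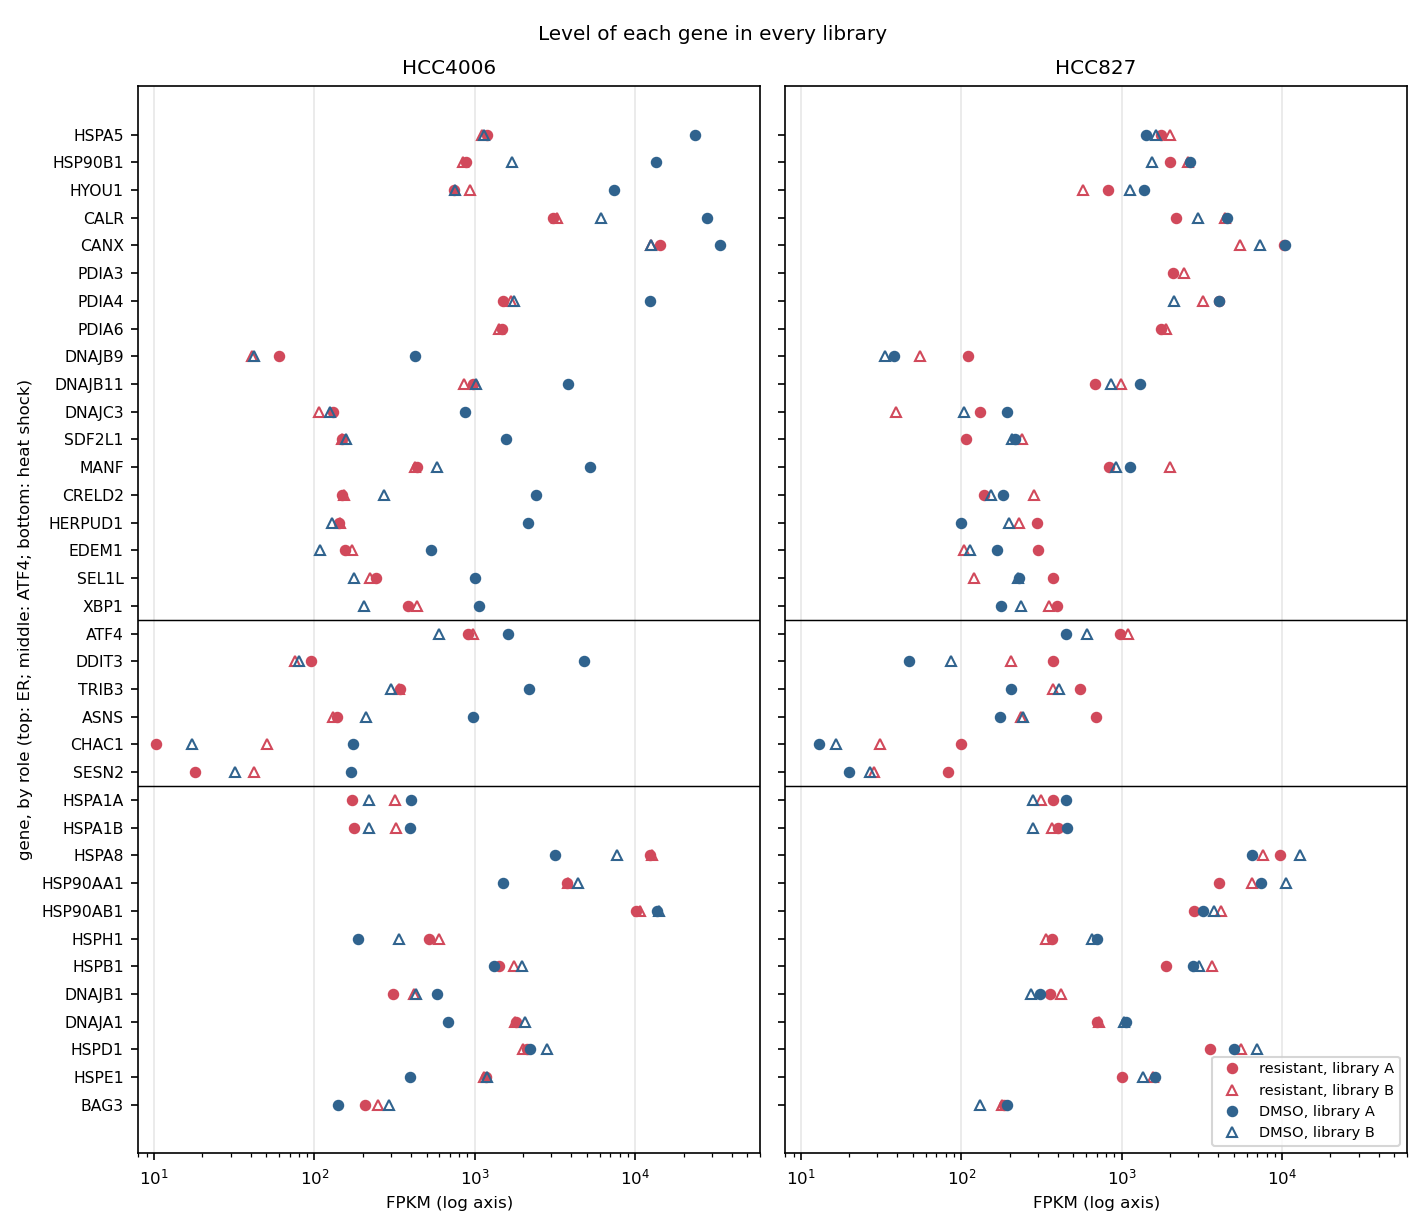
FPKM of each gene (log axis) in the 4 HCC4006 libraries (left) and the 4 HCC827 libraries (right), with resistant libraries in red, DMSO libraries in blue, A as filled circles and B as open triangles. Genes run from ER (top) through ATF4 (middle) to heat shock (bottom), a value of 0 is not drawn, and DMSO library A of HCC4006 stands to the right of the other 3 HCC4006 libraries for all 16 ER genes above 0 and all 6 ATF4 genes.

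HSPA5 (BiP), the main Hsp70 chaperone of the ER lumen (chr9:127997131-128003609 in hg19, the build of the tables), was at 1198 and 1102 FPKM in resistant HCC4006, against 23576 and 1146 FPKM in HCC4006 DMSO. In HCC827 it was at 1753 and 1985 FPKM in resistant cells, against 1412 and 1640 FPKM in DMSO. A single library, DMSO A of HCC4006, thus stood apart, and the other 7 lay between 1102 and 1985 FPKM. The library difference in HCC4006 DMSO was 20.6-fold, rank 33 of the 17238 rows above 0 in both libraries.

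HSP90B1 (GRP94), the ER member of the HSP90 family, was at 882 and 849 FPKM in resistant HCC4006, against 13483 and 1694 FPKM in DMSO. CRELD2, a secreted ER stress protein whose row shares a locus with ALG12, was at 148 and 152 FPKM in resistant HCC4006, against 2407 and 273 FPKM in DMSO. Both genes were lower in both resistant libraries than in either DMSO library, and 7 of the 16 ER genes above 0 shared that order, as did 28.3% of all rows above 0. No ER gene had both resistant libraries above both DMSO libraries, an order seen in 22.7% of those rows.

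The same library stood apart through every functional class of the ER group. The lectin chaperones CALR and CANX, which hold glycoproteins during folding, were 4.61-fold and 2.72-fold higher in DMSO A than in DMSO B of HCC4006, and HYOU1, an exchange factor for HSPA5, 9.81-fold. Among the J-domain partners of HSPA5, DNAJB9 was 10.0-fold, DNAJC3 6.99-fold and DNAJB11 3.73-fold higher. SDF2L1, which works with DNAJB11, was 9.92-fold and MANF, a secreted ER stress protein, 8.94-fold higher. The degradation genes HERPUD1, SEL1L and EDEM1, which help move misfolded proteins out of the ER, were 16.5-fold, 5.69-fold and 4.94-fold higher. XBP1, the transcription factor activated by IRE1, was 5.17-fold and the isomerase PDIA4 7.12-fold higher.

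Across the 16 ER genes the A minus B difference on the log2(FPKM + 0.5) scale ran between 1.44 for CANX and 4.36 for HSPA5, with a median of 2.91. All 16 were higher in A, 14 of them by 4-fold or more, as were 3.82% of all rows. Their summed FPKM made up 0.491% and 0.423% of all FPKM in resistant HCC4006, against 2.24% and 0.479% in HCC4006 DMSO. In HCC827 the share was 0.464% and 0.389% in resistant cells, against 0.531% and 0.412% in DMSO.

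ATF4 and its targets stood apart in the same library. DDIT3, the stress-induced growth arrest factor CHOP (chr12:57853917-57914300 in hg19, a locus that also holds rows for MARS, GLI1 and ARHGAP9), was at 94.9 and 76.0 FPKM in resistant HCC4006, against 4773 and 80.1 FPKM in DMSO. Its 59.6-fold difference between DMSO libraries had rank 5 of 17238 rows. ATF4 itself, which is controlled mainly at translation, was at 905 and 970 FPKM in resistant HCC4006, against 1605 and 597 FPKM in DMSO. Of the 6 genes it showed the smallest difference between the DMSO libraries, 1.43 on the log2 scale.

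ASNS, asparagine synthetase, was at 137 and 131 FPKM in resistant HCC4006, against 979 and 209 FPKM in DMSO. SESN2, a stress-induced inhibitor of mTORC1 signalling, was at 18.1 and 41.8 FPKM in resistant HCC4006, against 170.0 and 32.0 FPKM in DMSO. For ASNS both resistant libraries were below both DMSO libraries, while for SESN2 the resistant libraries lay on either side of DMSO B. TRIB3, a pseudokinase that restrains ATF4, was 7.23-fold higher in DMSO A than in DMSO B, and CHAC1, a glutathione-degrading enzyme, 10.1-fold. All 6 genes were higher in A, 5 by 4-fold or more, with a median of 2.62.

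The heat shock genes did not share that pattern. HSPA8, the constitutive Hsc70 of the cytosol, whose row is joined with the small RNA SNORD14, was at 12331 and 12783 FPKM in resistant HCC4006, against 3159 and 7677 FPKM in DMSO. HSPE1, the mitochondrial co-chaperonin Hsp10, was at 1181 and 1139 FPKM in resistant HCC4006, against 396 and 1197 FPKM in DMSO. For HSPA8 both resistant libraries were above both DMSO libraries, and for HSPE1 DMSO A alone was low. In all, 2 of the 12 heat shock genes had both resistant libraries above both DMSO libraries, as did 22.7% of all rows above 0. In 3, HSP90AB1, DNAJB1 and HSPD1, both were below, as in 28.3% of those rows. DNAJA1, a J-domain partner of Hsc70, and HSP90AA1, the inducible cytosolic HSP90, were 0.330 and 0.341 times as high in DMSO A as in DMSO B.

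Over the 12 heat shock genes, A minus B in HCC4006 DMSO ran between −1.60 and 0.88 with a median of −0.71, and 9 were lower in A. None reached a 4-fold difference, where 3.82% of all rows were higher and 2.66% lower by that much. HSPA1A and HSPA1B, the stress-inducible Hsp70 genes, were 1.84-fold and 1.82-fold higher in A. Their coding sequences are nearly identical and their values moved together, so fragments may have been divided between them. The 12 genes held 0.681% and 0.659% of all FPKM in resistant HCC4006, against 0.400% and 0.639% in DMSO.

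**Figure D2:**
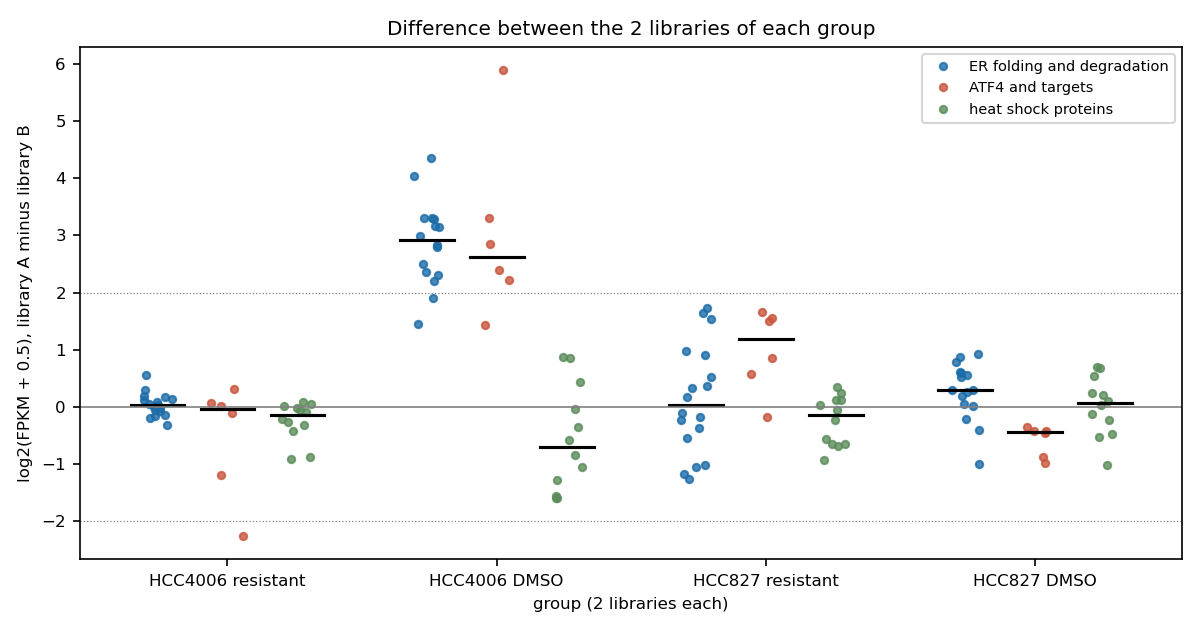
Difference between the 2 libraries of each group (library A minus library B, log2(FPKM + 0.5), vertical axis) for genes above 0 in both, by group and by role, with 1 point a gene, a black bar at the median and dotted lines at a 4-fold difference. In HCC4006 DMSO the medians were 2.91 for ER genes, 2.62 for ATF4 genes and −0.71 for heat shock genes, and in resistant HCC4006 they were 0.04, −0.04 and −0.14.

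In the resistant HCC4006 pair, all 17 ER genes above 0 differed between libraries by 0.55 or less on the log2 scale. CHAC1 (10.2 and 50.7 FPKM) and SESN2 were the exceptions among the ATF4 genes, with A minus B at −2.25 and −1.19. A 4-fold difference was found in 0.311% of all rows higher in A and 0.541% lower, and among the members in CHAC1 alone. In the HCC827 DMSO pair the medians were 0.29 for ER genes, −0.44 for ATF4 genes and 0.07 for heat shock genes, with no member at 4-fold, where 2.09% of all rows were higher in A and 1.42% lower.

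Against both DMSO libraries together, no member above 0 passed the test in HCC4006. The limma fit used log2(FPKM + 0.5) over all 19881 rows of the line, with adjusted p-values by Benjamini-Hochberg, and called 1.01% of the 16484 rows above 0 higher and 2.01% lower in resistant cells. At an unadjusted p below 0.05 it gave 0 of 16 ER genes, 0 of 6 ATF4 genes and 1 of 12 heat shock genes (HSPH1), beside 16.9% of all rows above 0, and no member was called with the fit restricted to rows above 0, which called 0.534% of them. Median log2 differences, resistant minus DMSO, were −1.52 for ER genes, −1.33 for ATF4 genes and 0.07 for heat shock genes, beside −0.04 over all rows above 0. The standard errors were wide, as for HSPA5 (−2.18, SE 1.60, adjusted p = 0.507) and DDIT3 (−2.86, SE 2.15, adjusted p = 0.512).

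These medians depended on which DMSO library was used. Resistant minus DMSO A alone, the ER median was −3.11, with all 16 genes lower, and resistant minus DMSO B alone it was −0.03, with 8 genes lower, 8 higher and all 16 within 1. The ATF4 median was −2.77 against DMSO A and 0.13 against DMSO B, where all 6 genes were within 1. For heat shock genes these values were 0.48 and −0.21, and against DMSO B all 12 were within 1.

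Refitted without DMSO B, which leaves 1 DMSO library assumed to vary like the resistant pair, limma called 13 ER genes and 3 ATF4 genes (ASNS, DDIT3 and TRIB3) lower in resistant cells and 4 heat shock genes (DNAJA1, HSP90AA1, HSPA8 and HSPE1) higher. The background there was 4.97% of rows lower and 4.4% higher. Refitted without DMSO A it called 0 members in either direction, with 1.59% of rows lower and 1.09% higher.

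**Figure D3:**
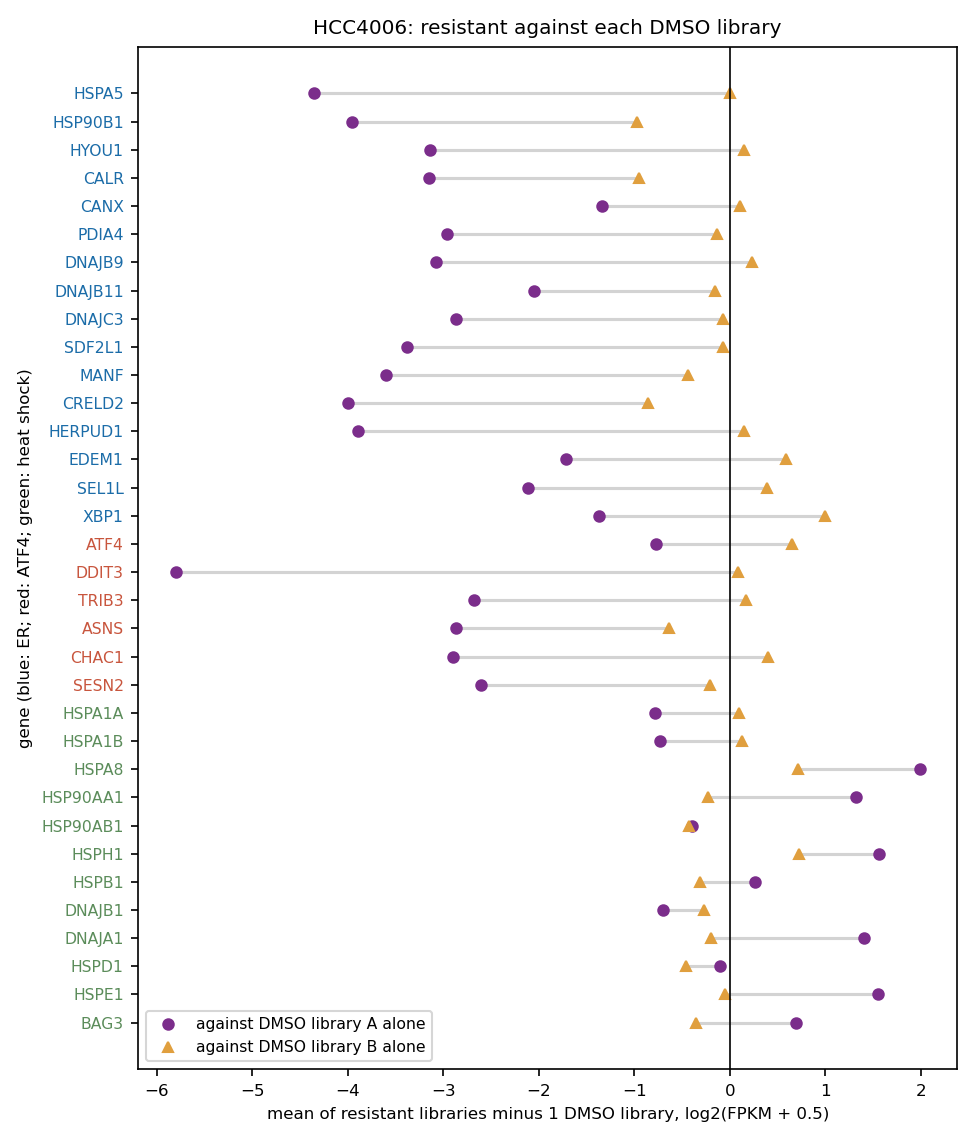
Mean of the 2 resistant HCC4006 libraries minus 1 DMSO library (log2(FPKM + 0.5), horizontal axis), with DMSO A as purple circles and DMSO B as orange triangles, for the 34 genes above 0. ER and ATF4 genes lie below 0 against DMSO A (medians −3.11 and −2.77). Against DMSO B they lie on both sides of 0 (medians −0.03 and 0.13), ER genes between −0.97 and 0.997 and ATF4 genes between −0.64 and 0.65.

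In HCC827 no library stood apart for the whole ER group, and the 6 ATF4 genes had a positive median in resistant cells with none called. DDIT3 was at 370 and 205 FPKM in resistant HCC827, against 47.0 and 86.2 FPKM in DMSO (log2 2.10, SE 0.48, adjusted p = 0.102, limma). CHAC1 was at 99.4 and 31.3 FPKM in resistant HCC827, against 12.9 and 16.6 FPKM in DMSO (1.89, SE 0.64, adjusted p = 0.227). SESN2 was at 82.0 and 28.5 FPKM in resistant HCC827, against 19.9 and 26.8 FPKM in DMSO (1.05, SE 0.60, adjusted p = 0.443).

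For these 3 genes and for ATF4 (974 and 1095 FPKM in resistant HCC827, against 452 and 607 FPKM in DMSO) both resistant libraries were above both DMSO libraries. That is 4 of 6 genes, where 20.2% of all rows above 0 showed the order. ASNS and TRIB3 were higher in resistant library A than in either DMSO library, but in resistant library B below DMSO B. The median of the 6 was 1.01, beside −0.10 over all rows above 0, and 0 were called, where limma called 0.446% of rows above 0 higher and 0.553% lower, and 0.119% in either direction when fitted over those rows alone. At an unadjusted p below 0.05 there were 3 of the 6, ATF4, DDIT3 and CHAC1, beside 12.1% of all rows above 0.

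ER genes of HCC827 were mixed. DNAJB9 (ERdj4), which assists HSPA5 and ER-associated degradation, was at 110.1 and 55.4 FPKM in resistant HCC827, against 38.0 and 33.4 FPKM in DMSO (1.12, SE 0.44, adjusted p = 0.287). HERPUD1 was at 296 and 230 FPKM in resistant HCC827, against 99.5 and 199 FPKM in DMSO (0.89, SE 0.44, adjusted p = 0.384). DNAJC3, an inhibitor of the eIF2α kinases, was at 131 and 39.1 FPKM in resistant HCC827, against 191 and 105 FPKM in DMSO (−0.98, SE 0.69, adjusted p = 0.529).

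DNAJB9 and HERPUD1 did not overlap between the groups, and the DNAJC3 groups did. In all, 4 of the 16 ER genes had both resistant libraries above both DMSO libraries, as did 20.2% of all rows above 0. In 1, HYOU1, both were below, as in 26.3% of those rows. The median was 0.21, with 0 genes called. At an unadjusted p below 0.05 there was 1, XBP1 (0.86, SE 0.30, adjusted p = 0.239, limma), beside 12.1% of all rows above 0.

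Within the resistant HCC827 pair, ATF4 targets were higher in library A, by 1.65 for CHAC1, 1.55 for ASNS and 1.51 for SESN2, while ATF4 itself was not (−0.17). ER genes divided evenly, 9 higher in A and 9 lower. DNAJC3 (1.73), SEL1L (1.64) and EDEM1 (1.54) were highest in A, and MANF (−1.25), SDF2L1 (−1.16), CRELD2 (−1.04) and CALR (−1.01) were lowest. No member reached 4-fold, where 2.18% of all rows were higher and 1.27% lower by that much.

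This division moved with transcript length. Over all rows with a mean of at least 10 FPKM, the median A minus B in resistant HCC827 was −0.63 for genes whose longest coding transcript was under 1500 bases, −0.25 between 1500 and 3000 bases, 0.27 between 3000 and 6000 bases and 0.67 above 6000 bases. Across the 18 ER genes, which share the same pair of libraries, the difference had a Pearson r of 0.86 with log2 transcript length. This r was 0.22 across the 6 ATF4 genes, 0.52 across the 12 heat shock genes and 0.56 across all 36 members. The 3 ER genes highest in A had transcripts of 5591 bases (DNAJC3), 7925 bases (SEL1L) and 6146 bases (EDEM1), and the 3 lowest 1153 bases (MANF), 865 bases (SDF2L1) and 1577 bases (CRELD2). CHAC1 and ASNS, with transcripts of 1849 and 2356 bases, lay above the median of their length range. The part of length in these differences was not tested.

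In HCC4006 DMSO the same length ranges had medians between −0.08 and 0.11, and r across the 16 ER genes was −0.15. There r was −0.78 across the 6 ATF4 genes, 0.09 across the 12 heat shock genes and 0.008 across all 34 members above 0. The short genes SDF2L1, MANF and DDIT3 (1067 bases) were among those far higher in DMSO A.

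**Figure D4:**
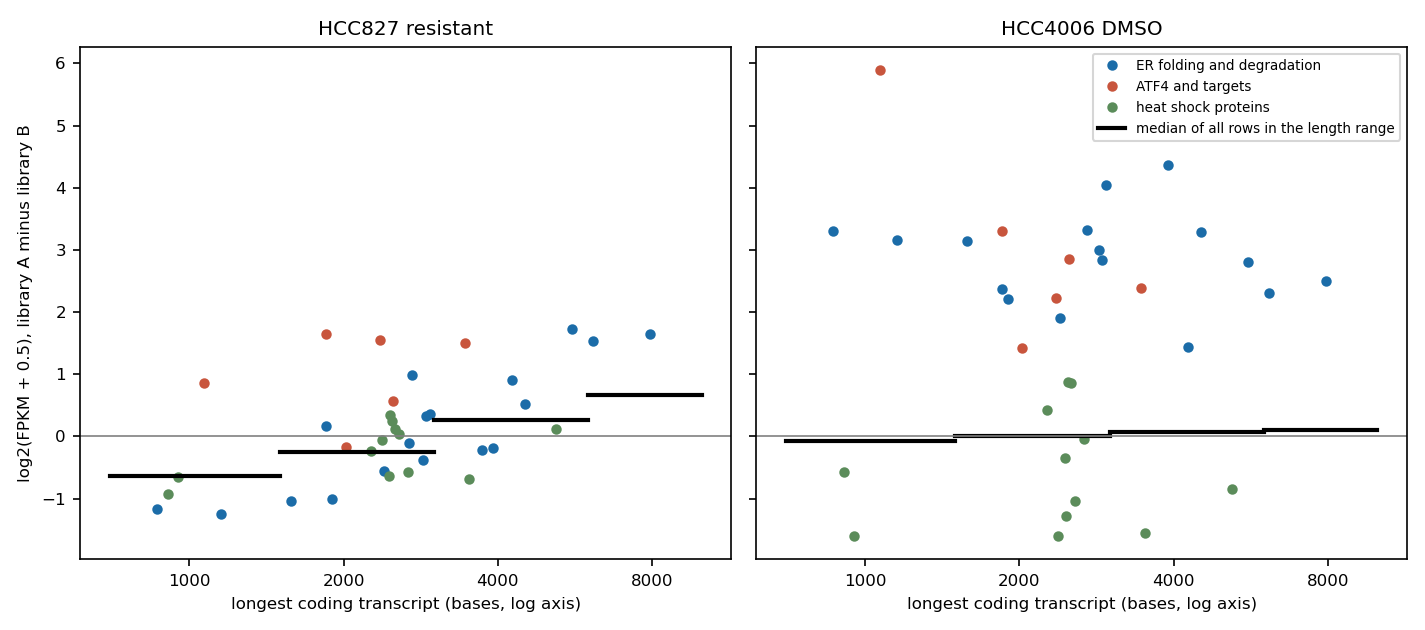
Library A minus library B (log2(FPKM + 0.5), vertical axis) against the length of the longest coding transcript (bases, log axis) in resistant HCC827 (left) and HCC4006 DMSO (right), with 1 point a gene and black bars at the median of all rows in a length range. In resistant HCC827 the bars climb with length, between −0.63 and 0.67, and in HCC4006 DMSO they stay between −0.08 and 0.11 while ER and ATF4 genes of all lengths lie above them.

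Heat shock genes of HCC827 had a median of −0.12, with 0 of 12 called. At an unadjusted p below 0.05 there was 1, HSPH1, beside 12.1% of all rows above 0. HSP90AA1 was at 4060 and 6506 FPKM in resistant HCC827, against 7362 and 10546 FPKM in DMSO (−0.78, SE 0.41, adjusted p = 0.414). DNAJA1 was at 700.3 and 726 FPKM in resistant HCC827, against 1056 and 1031 FPKM in DMSO (−0.55, SE 0.26, adjusted p = 0.375). Both were among 3 heat shock genes with both resistant libraries below both DMSO libraries, and DNAJB1, the J-domain partner Hsp40, was the 1 with both above, where 26.3% of all rows above 0 lay below and 20.2% above.

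HSPH1, the exchange factor Hsp110 that helps Hsp70 dissolve aggregates (chr13:31710764-31736502 in hg19), was the one member called in the test of a difference between the lines. It was at 518 and 599 FPKM in resistant HCC4006, against 188 and 336 FPKM in DMSO, and at 369 and 338 FPKM in resistant HCC827, against 701 and 653 FPKM in DMSO. The groups did not overlap in either line, with the resistant libraries higher in HCC4006 and lower in HCC827. Within a line neither difference was called (HCC4006: 1.15, SE 0.36, adjusted p = 0.182; HCC827: −0.94, SE 0.27, adjusted p = 0.166).

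The HCC827 change of HSPH1 minus its HCC4006 change was −2.08 (SE 0.43, adjusted p = 0.0284, limma over all 8 libraries). Among rows above 0, 1.69% were called lower and 3.2% higher in this contrast. The call was lost with a fit over rows above 0 alone, which called 1.45% of them (adjusted p = 0.0715), and without any one of the resistant HCC4006, DMSO HCC827 or resistant HCC827 libraries (0.0714 to 0.136), and it held without HCC4006 DMSO A (−1.67, adjusted p = 0.0207) or DMSO B (−2.50, adjusted p = 0.00396). Of rows above 0, 1.34% were called lower without DMSO A and 5.29% without DMSO B.

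For all 16 ER genes and all 6 ATF4 genes the change was higher in HCC827 than in HCC4006, with medians of 1.56 and 2.59. Of these genes 0 were called, and none was at an unadjusted p below 0.05 either, which 19.2% of all rows above 0 reached. The medians fell to 0.08 and 1.38 without HCC4006 DMSO A, where ER genes lay on both sides of 0. They rose to 2.94 and 3.75 without HCC4006 DMSO B. Without HCC4006 DMSO B, 10 ER and 3 ATF4 genes were called higher in the difference, with 5.92% of rows above 0. Without HCC4006 DMSO A none of the 22 was, with 2.01% of those rows.

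PDIA3 was listed at 0 in HCC4006 resistant, HCC4006 DMSO and HCC827 DMSO, and at 2095 and 2443 FPKM in resistant HCC827. PDIA6 was at 1488 and 1407 FPKM in resistant HCC4006 and 1755 and 1890 FPKM in resistant HCC827, and was listed at 0 in all 4 DMSO libraries. Both rows share a locus with other genes, as do rows of members that were above 0. Whether these zeros are failed estimates was not tested, and no fold is given.

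Wider lists of the same pathways placed these genes among their partners. Of 42 further ER folding and degradation genes above 0 in HCC4006, 1 was called lower, ERP29, a folding factor of the ER lumen, which is near the 2.01% of all rows above 0. It was at 413 and 400.1 FPKM in resistant HCC4006, against 1094 and 1076 FPKM in DMSO (−1.42, SE 0.18, adjusted p = 0.0234, limma). Here the DMSO libraries were alike. The call was lost over rows above 0 alone (0.0783). It was also lost without resistant library A or B, where the change stayed at −1.44 and −1.39. Those 2 refits called few rows above 0 of any kind, so they cannot decide on this gene.

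Of 35 further ATF4 and amino acid response genes above 0 in HCC4006, 1 was called lower, SLC7A5, a transporter of large neutral amino acids, which is again near that 2.01%. It was at 515 and 386 FPKM in resistant HCC4006, against 1456 and 1194 FPKM in DMSO (−1.56, SE 0.25, adjusted p = 0.0463). That call was lost without any one of the 4 libraries (0.0833 to 0.355), over rows above 0 alone (0.0980), under median-of-ratios scaling (0.0515) or quantile normalization (0.0551), and with all 8 libraries in 1 fit (0.224). Of 18 further sensors and regulators and 45 further heat shock factors, chaperones and co-chaperones, 0 were called in HCC4006. At an unadjusted p below 0.05 were 2 and 5 of them, 5 of the 42 ER folding and 3 of the 35 ATF4 genes. The share over all rows above 0 was 16.9%.

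In HCC827 the single wider-list call among rows above 0, of which 0.553% were called lower, was HSPB8, a small heat shock protein that works with the member BAG3 in clearing misfolded proteins. It was at 16.6 and 13.9 FPKM in resistant HCC827, against 66.0 and 69.6 FPKM in DMSO (−2.12, SE 0.31, adjusted p = 0.0250), and at 70.6 and 57.8 FPKM in resistant HCC4006, against 45.0 and 43.8 FPKM in DMSO. The groups overlapped in neither line, and the resistant libraries were lower in HCC827 and higher in HCC4006. Its HCC827 change minus its HCC4006 change was −2.64 (SE 0.33, adjusted p = 0.00361). This difference stayed called in every alternative run, with adjusted p between 0.00349 and 0.0399, while the call within HCC827 was lost over rows above 0 alone (0.133) and without any one library (0.0839 to 0.269).

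BAG3 was at 207 and 248 FPKM in resistant HCC4006, against 140 and 290 FPKM in DMSO, and at 184 and 179 FPKM in resistant HCC827, against 192 and 131 FPKM in DMSO. Its groups overlapped in both lines. None of 17 further sensors and regulators, 40 ER folding and 37 ATF4 genes above 0 in HCC827 was called by limma. At an unadjusted p below 0.05 were 1, 4 and 9 of them, and 6 of 41 further heat shock genes. The share over all rows above 0 was 12.1%.

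The A to B contrast of HCC4006 DMSO reached unevenly into the wider lists. Of the 35 further ATF4 and amino acid response genes, 34 were higher in A, with a median of 1.62 and 9 at 4-fold or more. Of the 42 further ER genes 34 were higher with a median of 0.76 and 1 at 4-fold or more, beside a median of 2.91 for the 16 ER members. Medians were 0.41 for 18 sensors and regulators and −0.05 for 45 heat shock factors and partners, beside 0.04 over all rows. Of all rows, 3.82% were 4-fold or more higher in A, so the single further ER gene is near that share.

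Chosen after their values were seen, genes far apart in these lists included GDF15, a secreted stress cytokine (756 FPKM in DMSO A and 23.5 FPKM in DMSO B), the ER oxidase ERO1LB (227 and 7.12 FPKM), ERN1, which encodes the sensor IRE1 (84.1 and 3.18 FPKM), BHLHA15, a transcription factor of secretory cells (111 and 5.06 FPKM), and HSPA6, a strictly stress-induced Hsp70 (37.9 and 1.46 FPKM). For each of these genes the resistant HCC4006 libraries were nearer to DMSO B than to DMSO A. They were at 29.2 and 36.6 FPKM for GDF15, 17.9 and 12.3 FPKM for ERO1LB and 4.07 and 4.44 FPKM for ERN1. For BHLHA15 they were at 4.04 and 5.77 FPKM, and for HSPA6 at 0.802 and 2.62 FPKM.

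The promoter elements and the library contrast were set side by side without a test. In HCC4006 DMSO the 9 ER members above 0 with an ER stress element of either form had a median A minus B of 3.14, and the 7 without one a median of 2.80. Rows of genes outside the set with such an element numbered 17 above 0 and had a median of 0.54, between −1.69 and 3.47. In A, 2 of them were higher by 4-fold or more, where 3.82% of all rows were. The highest was FICD, an enzyme that modifies HSPA5, at 196 FPKM in DMSO A and 17.2 FPKM in DMSO B. The other row at 4-fold or more was of NAV2, at 2.88 FPKM in DMSO A and 1.1e-07 FPKM in DMSO B. Its difference thus rests on a value at the floor. NAV2 had a further row among the 17, at 325 and 224 FPKM. The 5 heat shock members with a heat shock element had a median of −1.28, beside −0.71 for all 12 heat shock members. Outside the set, 33 rows above 0 with that element had a median of −0.16. Of these, 2 were 4-fold or more higher in A and 1 was lower by that much, beside 3.82% and 2.66% of all rows.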

How the data were processed

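Polyadenylated RNA of the 8 libraries was sequenced with TruSeq RNA v2 per the labels' protocols, a kit that does not mark strand. The authors deposited gene-level FPKM in 2 tables, 1 per line. Alignment and estimation tools named in the submitters' processing notes are TopHat 1.4.1, Cufflinks 1.3.0 and Cuffdiff, with build hg19. For the annotation and options, the sources used here give nothing. Column letters A and B were tied to no replicate number, and 0 columns fell outside the 8 libraries. FPKM hold no counts, so depth is unknown and no counting interval is given. Changes were taken within a line, since separate normalization of the tables is possible.

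From the FPKM, log2(FPKM + 0.5) was tested with limma 3.58.1 under R 4.3.3 (lmFit, then eBayes with a mean trend) over rows with a mean of at least 0.5 FPKM, after a check on simulated data. The main fits used the 4 libraries of a line, and the interaction all 8 libraries. Two-sided p-values were adjusted by Benjamini-Hochberg across every row fitted, and called means an adjusted p below 0.05. Differences are resistant minus DMSO and understate changes of low genes. Rows listed at 0 in a library of the comparison were left out of counts and medians. A minus B was computed for rows above 0 in both libraries with a mean of at least 0.5 FPKM. Tables were handled in Python 3.11.15 with pandas 2.3.3.

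Values by library are given for members called in any test and for the 3 members of each role with the largest change in a line, and for wider-list genes that were called. The other ER and ATF4 members are given by their A to B ratios, and genes named beyond this were chosen after their values were seen, as were alternatives for the A minus B values and the wider lists. Some results for genes outside the member set are not reported here. The members and lists were chosen with earlier results of these data known. Alternatives covered the pseudocount, filters, rows at 0, scaling, libraries in the fit, a replicate block, summed rows and leaving out each library. Transcript lengths are those of the longest coding transcript in GENCODE 29. Motifs were searched on both strands of RefSeq promoter windows (GRCh38.p14), while gene loci are in hg19 as deposited. At 15 members the locus also holds another row, so fragments may be shared between genes.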

Additional observations from a re-analysis of the deposited data

Results flagged for a closer look

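For 3 of the genes reported here the interaction test called the difference between resistant and DMSO libraries unlike in the 2 lines. These were HSPH1 among the members and ERP29 and HSPB8 in the wider lists. Of all rows above 0, this contrast called 3.2% higher and 1.69% lower. The calls of HSPH1 and ERP29 were lost in several alternative fits, while that of HSPB8 held in all of them.

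For HSPH1, the Hsp110 exchange factor, the HCC827 change minus the HCC4006 change was −2.08 (SE 0.43, adjusted p = 0.0284, limma; between 0.00396 and 0.136 without 1 library, and 0.0715 over rows above 0 alone), with both resistant libraries below both DMSO libraries in HCC827 and above them in HCC4006. For HSPB8, the small heat shock protein that partners BAG3, it was −2.64 (SE 0.33, adjusted p = 0.00361), with the same order of libraries. BAG3 itself was not called.

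The ER lumen protein ERP29 differed by 1.95 (SE 0.43, adjusted p = 0.0351, limma). The call was lost over rows above 0 alone (0.0812), under quantile normalization (0.0721) and with a replicate block (0.102). Most refits without 1 library also lost it, with differences between 1.53 and 2.38. ERP29 was at 1616 and 1442 FPKM in resistant HCC827, against 784 and 1408 FPKM in DMSO, and at 413 and 400.1 FPKM in resistant HCC4006, against 1094 and 1076 FPKM in DMSO. The groups of ERP29 overlapped in neither line. In HCC827 this order rests on 1442 FPKM in resistant B against 1408 FPKM in DMSO B, and the change was not called (0.54, SE 0.39, adjusted p = 0.535, limma).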

How the results depend on the processing

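Depth is unknown and each group has 2 libraries, so differences within the spread of 1 pair cannot be resolved, and fits that leave 1 library in a group assume that it varies like the others. Over rows above 0 alone, limma called 88 genes in HCC4006 (1860 over all rows), 19 in HCC827 (1314) and 212 in the difference between the lines (2501), and among members 0 lower in that difference, against 1 (HSPH1). The other alternatives, which were a pseudocount of 1, no filter, a mean of at least 2 FPKM, median-of-ratios scaling, quantile normalization, 1 fit of all 8 libraries, and summed rows, kept these counts within 1.5-fold. Scaling moved the median of rows above 0 to 0.02 (median-of-ratios) and −0.22 (quantile) in HCC4006, against −0.04, and to −0.02 and −0.28 in HCC827, against −0.10. Of the member differences, 7 turned sign. Under median-of-ratios scaling these were HSPB1 in HCC4006 (0.037), and HSPA1A (0.0096) and HSP90AB1 (0.050) in HCC827. Under quantile normalization they were HSPB1 (0.10) and ATF4 (0.028) in HCC4006, and CANX (−0.31, against 0.41) and HSP90AB1 (−0.039) in the difference between the lines. The cause was not tested.

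The column letters were also used as a replicate block. Deviations of A from B correlated across rows between resistant and DMSO pairs at r = −0.08 in HCC4006 and 0.20 in HCC827, and with 2 letters that are tied to no label the libraries share only a letter. With the block limma called 1400 genes in HCC4006, 1485 in HCC827 and 1687 in the difference, where 0 members above 0 were called lower (HSPH1: adjusted p = 0.0554). In HCC4006 the wider-list calls of ERP29 (0.0972) and SLC7A5 (0.0776) were lost with it.

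Leaving out each library in turn gave 1394 to 3565 called genes in HCC4006, 0 to 1520 in HCC827 and 1666 to 3857 in the difference. Members called ranged between 0 and 4 higher and 0 and 16 lower in HCC4006, with the highest numbers without DMSO B, and between 0 and 13 higher and 0 and 2 lower in the difference. No member above 0 was called in HCC827 without any one library. Without DMSO A or DMSO B of that line no row above 0 was called at all, so those refits cannot decide on a member. Group medians ranged between −3.11 and −0.033 for ER genes, −2.77 and 0.13 for ATF4 genes and −0.21 and 0.48 for heat shock genes in HCC4006. In HCC827 they ranged between −0.13 and 0.28, 0.71 and 1.78, and −0.43 and −0.022. Members whose sign turned when 1 library was left out are given with their lowest and highest log2 change. In HCC4006 these were HSPA5 (−4.36 to 0.0043), HYOU1 (−3.14 to 0.15), CANX (−1.34 to 0.11), DNAJB9 (−3.08 to 0.24), HERPUD1 (−3.89 to 0.15), EDEM1 (−1.71 to 0.59), SEL1L (−2.11 to 0.39), XBP1 (−1.37 to 0.997), ATF4 (−0.78 to 0.65), DDIT3 (−5.80 to 0.084), TRIB3 (−2.68 to 0.17), CHAC1 (−2.90 to 0.40), HSPA1A (−0.79 to 0.11), HSPA1B (−0.74 to 0.13), HSP90AA1 (−0.23 to 1.32), DNAJA1 (−0.20 to 1.401), HSPE1 (−0.045 to 1.55), BAG3 (−0.36 to 0.69) and HSPB1 (−0.31 to 0.27). In HCC827 they were CALR (−0.76 to 0.25), CANX (−0.66 to 0.25), HSPA1A (−0.41 to 0.28), HSP90B1 (−0.22 to 0.57), PDIA4 (−0.16 to 0.76), HSPA1B (−0.24 to 0.46), HSPA8 (−0.60 to 0.41), HSP90AB1 (−0.31 to 0.26), BAG3 (−0.085 to 0.46), SDF2L1 (−0.99 to 0.18), EDEM1 (−0.41 to 1.13), HSPB1 (−0.61 to 0.32), HSPE1 (−0.56 to 0.083), MANF (−0.29 to 0.97), CRELD2 (−0.28 to 0.76) and SEL1L (−0.92 to 0.72). In the difference between the lines they were HYOU1 (−1.01 to 2.28), CANX (−0.31 to 1.13), DNAJB11 (−0.21 to 1.69), DNAJC3 (−0.91 to 1.89), SDF2L1 (−0.33 to 2.98), EDEM1 (−0.23 to 2.07), SEL1L (−0.50 to 2.01), XBP1 (−0.14 to 2.23), HSPA1A (−0.18 to 0.73), HSPA1B (−0.027 to 0.85), HSPB1 (−0.59 to 0.34), HSPD1 (−0.45 to 0.19) and BAG3 (−0.50 to 0.54).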

Other observations

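The genes below were picked after their values were seen, and stand for no pathway. In the DMSO pair of HCC4006, 5 genes known from DNA replication and the cell cycle were lower in A. The cell cycle factor E2F1 was at 11.9 FPKM in DMSO A and 167 FPKM in DMSO B, and the replication helicase subunit MCM4 at 143 and 1795 FPKM. A minus B on the log2 scale was −3.83 for CCNE2, −4.08 for CLSPN and −3.86 for UHRF1.

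Immune genes picked in the same way were higher in DMSO A. HLA-DRA, an MHC class II chain, was at 464 FPKM in DMSO A and 9.32 FPKM in DMSO B, PIGR, the transporter of secretory antibodies, at 615 and 1.33 FPKM, and the complement gene C3 at 6638 and 228 FPKM. The DMSO pair of HCC827 had the same order, with HLA-DRA at 548 FPKM in A and 10.5 FPKM in B, PIGR at 16.5 and 0.798 FPKM and C3 at 55.5 and 3.04 FPKM. Their part in the contrast of ER and ATF4 genes was not tested.

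In resistant HCC827, 3 genes known as immediate early genes, also picked for their values, were lower in library A. FOS was at 10.6 FPKM in A and 256 FPKM in B, and A minus B on the log2 scale was −3.40 for EGR1 and −3.24 for DUSP1. Of 38 further ATF4 and amino acid response genes above 0 in that pair, 33 were higher in A, 5 of them by 4-fold or more. Their median was 0.80, beside 0.004 over all rows, of which 2.18% were 4-fold or more higher in A. In this pair A minus B moved with transcript length, and the part of length in this list was not tested. ALDH1L2, a mitochondrial folate enzyme, was at 61.2 FPKM in A and 3.96 FPKM in B, and NUPR1, a stress-induced chromatin protein, at 68.2 and 8.71 FPKM. GDF15 was at 488 and 240 FPKM in resistant HCC827, against 104 and 33.4 FPKM in DMSO (log2 2.53, SE 0.69, adjusted p = 0.153, limma), so the groups did not overlap and the gene was not called.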
